A study of Mus musculus with 12 samples.

Results

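MHC class II antigen presentation was followed in mouse liver through 7 genes: H2-Aa, H2-Ab1, H2-Eb1, H2-DMa, H2-DMb1, Cd74 and Ciita. They were picked by name from a table of 21936 genes, and all 7 were found. The mice were male C57BL/6J animals (C57BL/6 in the labels), bought at 6 weeks of age, in which the hepatotoxin carbon tetrachloride (CCl4, 1 mL/kg into the peritoneum, 2 injections per week for 8 weeks) had produced liver fibrosis. The liver fibrosis group (LFG) was killed at the end of CCl4. The regression group (REG) then received 200 μl of phosphate-buffered saline by tail vein 2 times per week for 4 weeks, and the hADMSCs-Exo group received, on the same schedule and in the same volume, 250 μg of exosomes from human adipose mesenchymal stem cells. All 9 libraries, 3 per group, therefore came from CCl4-injured livers, and the libraries of the hADMSCs-Exo group are named MSC_E in the expression table. A further group given the cells themselves was not analysed here. The labels do not say that each library is a separate mouse, so the p-values measure the spread between these libraries. Read counts per library ranged from 13837445 to 19840917.

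MHC class II molecules are pairs of an alpha and a beta chain that carry peptides from internalised proteins to the cell surface, where CD4+ T cells read them. They are made mostly by dendritic cells, B cells and macrophages, and in the liver also by Kupffer cells and, at a lower level, by sinusoidal endothelium. H2-Aa and H2-Ab1 encode the alpha and beta chain of H2-A, and H2-Eb1 encodes the beta chain of H2-E, whose alpha chain is not made in C57BL/6 mice. Cd74, the invariant chain, fills the groove of new class II molecules and guides them to endosomes. H2-DMa and H2-DMb1 form H2-DM, which there trades the remnant of Cd74 for antigenic peptide. Ciita is the coactivator that switches the whole set on. It does not bind DNA itself but docks on RFX, CREB and NF-Y proteins that sit on the X and Y boxes of class II promoters.

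The promoters of the members were searched for letters of the class II boxes. Of the 7 members, H2-Aa, H2-Eb1, H2-DMa and H2-DMb1 matched the RefSeq promoter table (GRCm38.p6, 250 bases before to 50 after each start). H2-Ab1, Cd74 and Ciita did not match. Both strands were searched for a core of the X box, AACNNATG, and for the Y box, GATTGG, and then for the first followed on the same strand by the second, 20 to 40 bases later from start to start, so that the motifs do not overlap. The motifs were chosen from general knowledge with these sequences in view. AACNNATG stood in 8.86% and GATTGG in 16.1% of all 32851 promoters, and the spaced pair in 26 of them, or 0.0791%. H2-Eb1 and H2-DMb1 held the pair, as did their relatives H2-DMb2, H2-Ob and H2-Eb2. H2-Aa and H2-Oa held GATTGG but no AACNNATG, and neither of the entries for H2-DMa held the pair. The stretches below end shortly after the Y box and are read 5′ to 3′ along each gene. Motifs are in capitals. The last 5 hold both, with a spacing of 27 to 30 bases, and in H2-Aa, shown for contrast, GATTGG alone was found. A missing match says only that these exact letters are not in the window, not that a gene lacks an X box.
H2-Aa, chr17:34287853-34287932, minus strand: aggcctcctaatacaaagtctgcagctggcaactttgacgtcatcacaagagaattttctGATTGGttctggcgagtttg
H2-Eb1, chr17:34305747-34305826, plus strand: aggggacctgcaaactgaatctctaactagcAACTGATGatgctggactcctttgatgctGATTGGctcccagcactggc
H2-DMb1, chr17:34153069-34153148, plus strand: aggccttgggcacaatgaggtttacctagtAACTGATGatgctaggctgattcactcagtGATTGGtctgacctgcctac
H2-DMb2, chr17:34145098-34145177, plus strand: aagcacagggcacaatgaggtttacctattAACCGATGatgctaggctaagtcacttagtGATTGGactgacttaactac
H2-Ob, chr17:34238787-34238866, plus strand: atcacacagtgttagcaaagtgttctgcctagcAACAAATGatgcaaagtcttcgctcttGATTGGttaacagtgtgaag
H2-Eb2, chr17:34325514-34325593, plus strand: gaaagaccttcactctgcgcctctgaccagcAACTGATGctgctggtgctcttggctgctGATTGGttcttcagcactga

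The LFG libraries stood apart from each other before any comparison. LFG 3 lay at 96.7 on the first principal component, which held 48.7% of the variance, while LFG 1 lay at the other end at -79. LFG 3 also had the fewest genes detected (13924) and the lowest TMM factor (0.808), while LFG 1 had the most genes detected (15248) and the highest factor (1.376). By the mean correlation with the other libraries neither was farther out than the other (0.908 for both). LFG 3 was the lowest library for every member, and the comparisons of the members with LFG are therefore given with and without it. Without LFG 1 instead, 0 of 7 members were called and their median log2 fold change was 0.64 in hADMSCs-Exo against LFG and 0.56 in REG against LFG. Hepatocyte transcripts were present in all libraries, with albumin (Alb) between 64290 and 139500 CPM (reads scaled to a common library size).

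Per length, as FPKM, the members kept 1 order of level in all 9 libraries. Cd74 was highest at 108 ± 85.6 FPKM in LFG, 97.3 ± 38.9 in REG and 118 ± 53.8 in hADMSCs-Exo (mean ± SD, n = 3). H2-Eb1 followed at 47.7 ± 36.1, 50.6 ± 17.1 and 62.3 ± 23.7 FPKM, then H2-Ab1 at 34.9 ± 26.0, 37.0 ± 15.1 and 40.01 ± 17.03 and H2-Aa at 30.4 ± 23.7, 29.1 ± 11.6 and 32.1 ± 13.8 in the same groups. The peptide exchange genes stood well below, H2-Aa being 3.28 to 6.06 times H2-DMb1 in the same library, with H2-DMb1 at 6.75 ± 5.33, 6.07 ± 2.28 and 6.66 ± 1.92 FPKM and H2-DMa at 2.80 ± 1.92, 3.17 ± 1.35 and 3.76 ± 0.838. Ciita was lowest, at 0.592 ± 0.488, 0.473 ± 0.223 and 0.635 ± 0.333 FPKM. The spread of H2-Aa and H2-Ab1 between libraries of a group was wider than the step from one to the other, yet within each library H2-Ab1 was the higher, by 1.12 to 1.57 times. Likewise H2-Eb1 was 1.25 to 1.65 times H2-Ab1, and Cd74 1.66 to 2.44 times H2-Eb1, in every library.

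**Figure D1:**
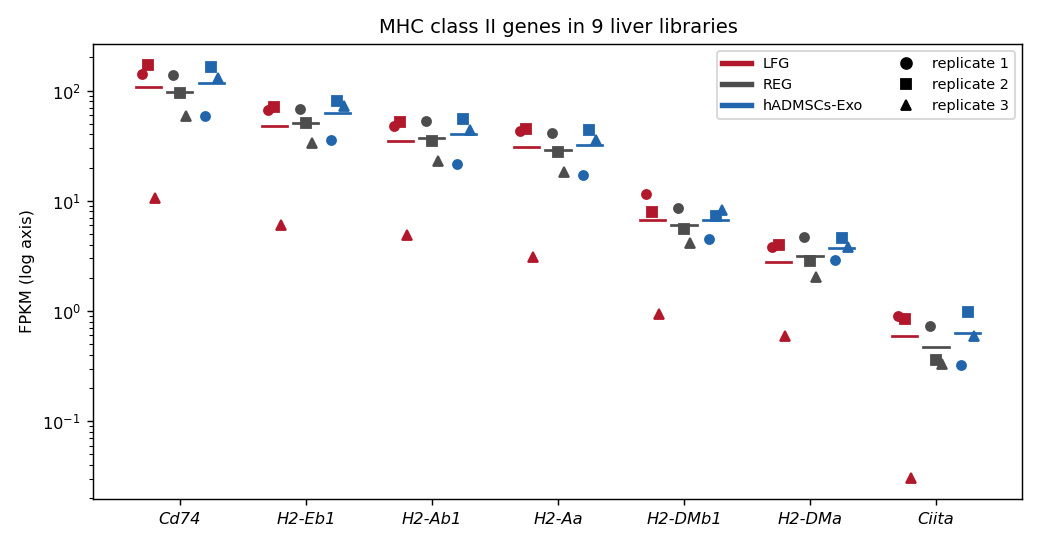
FPKM of the 7 genes on a log axis, in order of mean level; colors mark groups, marker shapes mark the replicate number and short bars the mean of 3 libraries. For all 7 genes the lowest point is LFG 3, while the points of the 3 groups otherwise overlap.

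After TMM normalization, H2-Aa measured 119, 158 and 14.6 CPM in LFG 1 to 3, 161, 113 and 73.0 CPM in REG 1 to 3 and 62.8, 165 and 145 CPM in hADMSCs-Exo 1 to 3. Its partner H2-Ab1 measured 89.8, 122 and 15.5 CPM in LFG, 140, 96.5 and 62.7 in REG and 53.8, 140 and 119 in hADMSCs-Exo. H2-Eb1 measured 94.4, 126 and 14.6 CPM in LFG, 135, 108 and 68.1 in REG and 67.2, 154 and 149 in hADMSCs-Exo. The 3 chains thus repeated 1 pattern, with LFG 3 far below every other library, hADMSCs-Exo 1 and REG 3 next, and the groups overlapping. Cd74 followed it with 172, 266 and 22.1 CPM in LFG, 236, 174 and 105 in REG and 96.4, 274 and 233 in hADMSCs-Exo. H2-DMa measured 9.61, 12.6 and 2.504 CPM in LFG, 16.5, 10.6 and 7.38 in REG and 9.71, 15.6 and 14.1 in hADMSCs-Exo. H2-DMb1 measured 13.99, 12.1 and 1.97 CPM in LFG, 14.8, 10.1 and 7.27 in REG and 7.40, 12.1 and 14.8 in hADMSCs-Exo. For the H2-DM genes LFG 3 was again lowest, and REG 3 rather than hADMSCs-Exo 1 came next. Ciita measured 6.28, 7.38 and 0.358 CPM in LFG, 7.15, 3.68 and 3.34 in REG and 3.02, 9.34 and 6.05 in hADMSCs-Exo. The value in LFG 3 rests on 4 reads, against 132 to 149 in the other LFG libraries, and is the least precise of all. In these bulk samples, fewer class II positive cells and less RNA per cell cannot be told apart.

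**Figure D2:**
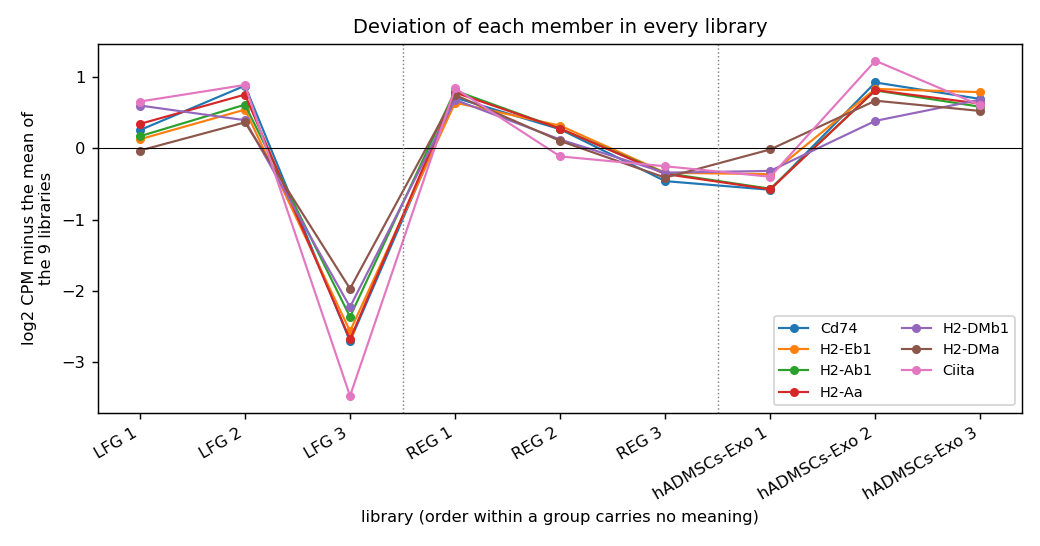
Deviation of each gene's log2 CPM from its own mean over the 9 libraries, with 1 line per gene and dotted lines between groups. The 7 lines run close together, dip in LFG 3 and again, less deeply, in REG 3 and hADMSCs-Exo 1.

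The comparison of hADMSCs-Exo with REG asked whether exosomes changed class II expression beyond what saline recovery left. No member passed the test. Cd74 differed by a log2 fold change of 0.23 ± 0.41 (SE), H2-Eb1 by 0.25 ± 0.35, H2-Aa by 0.096 ± 0.39 and H2-Ab1 by 0.064 ± 0.39. The H2-DM genes differed by 0.19 ± 0.31 for H2-DMa and 0.091 ± 0.33 for H2-DMb1, and Ciita by 0.37 ± 0.45. With edgeR's quasi-likelihood test, 0 of 7 members passed an adjusted p under 0.05 with a log2 fold change of 1 or more in size, 0 had an unadjusted p under 0.05 and 0 had groups that did not overlap, and DESeq2 also called 0. Over all 12337 genes tested, the edgeR shares were 0.00811%, 10.0% and 15.5%, and DESeq2 called 0.544% of the genes to which it gave an adjusted p. The smallest adjusted p among the members was 0.805, for Ciita. The median of the members was 0.19, beside 0.0080 over all genes, and it ranged from -0.061 without hADMSCs-Exo 2 to 0.50 without REG 1.

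The comparison of hADMSCs-Exo with LFG set exosome-treated recovery against the end of CCl4. Again no member passed. The log2 fold changes were 0.38 ± 0.81 for Cd74, 0.64 ± 0.72 for H2-Eb1, 0.45 ± 0.71 for H2-Ab1, 0.34 ± 0.78 for H2-Aa, 0.65 ± 0.55 for H2-DMa, 0.26 ± 0.66 for H2-DMb1 and 0.36 ± 0.90 for Ciita. By edgeR 0 of 7 were called, 0 had an unadjusted p under 0.05 and 0 had groups apart, and DESeq2 called 0, where over 12489 genes the edgeR shares were 0%, 5.98% and 12.3% and DESeq2 called 0.512%. LFG 3 decided the direction of these values. Without it H2-Aa moved to -0.14 ± 0.39, H2-Ab1 to -0.0042 ± 0.38, Cd74 to -0.11 ± 0.43, H2-DMb1 to -0.18 ± 0.30 and Ciita to -0.14 ± 0.43, while H2-Eb1 at 0.18 ± 0.36 and H2-DMa at 0.26 ± 0.26 stayed above 0. The count of members called, with an unadjusted p under 0.05 or with groups apart was still 0 in each case, whereas 5.97%, 28.5% and 48.8% of 12955 genes met these rules in the same fit. The median of the members went from 0.38 to -0.11, beside -0.059 and 0.0041 over all genes. With hADMSCs-Exo 1 left out as well, a choice made after seeing the data, it was 0.23, and the smallest adjusted p was 0.222, for H2-Eb1.

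The comparison of REG with LFG, which shares the LFG libraries with the previous one, set saline recovery against the end of CCl4. The log2 fold changes were 0.18 ± 0.77 for Cd74, 0.42 ± 0.69 for H2-Eb1, 0.42 ± 0.68 for H2-Ab1, 0.27 ± 0.75 for H2-Aa, 0.49 ± 0.58 for H2-DMa, 0.20 ± 0.65 for H2-DMb1 and 0.023 ± 0.87 for Ciita. With edgeR's quasi-likelihood test 0 of 7 were called, 0 had an unadjusted p under 0.05 and 0 had groups apart, and DESeq2 called 0, beside edgeR shares of 0%, 11.3% and 19.0% over 12517 genes and 2.0% by DESeq2. Without LFG 3 all but H2-DMa (0.091 ± 0.34) came out below 0, from -0.041 ± 0.32 for H2-Ab1 and -0.043 ± 0.29 for H2-Eb1 to -0.30 ± 0.35 for Cd74 and -0.49 ± 0.37 for Ciita. None passed there either, in a fit that called 10.7% of 12948 genes, gave 37.3% an unadjusted p under 0.05 and kept the groups of 55.6% apart. The smallest adjusted p of a member was then 0.363, for Ciita. The median of the members was 0.27 with LFG 3 and -0.21 without it, beside -0.068 and -0.0051 over all genes. Leaving out REG 1 instead also turned it, to -0.012, with H2-Aa, H2-DMb1, Cd74 and Ciita below 0.

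**Figure D3:**
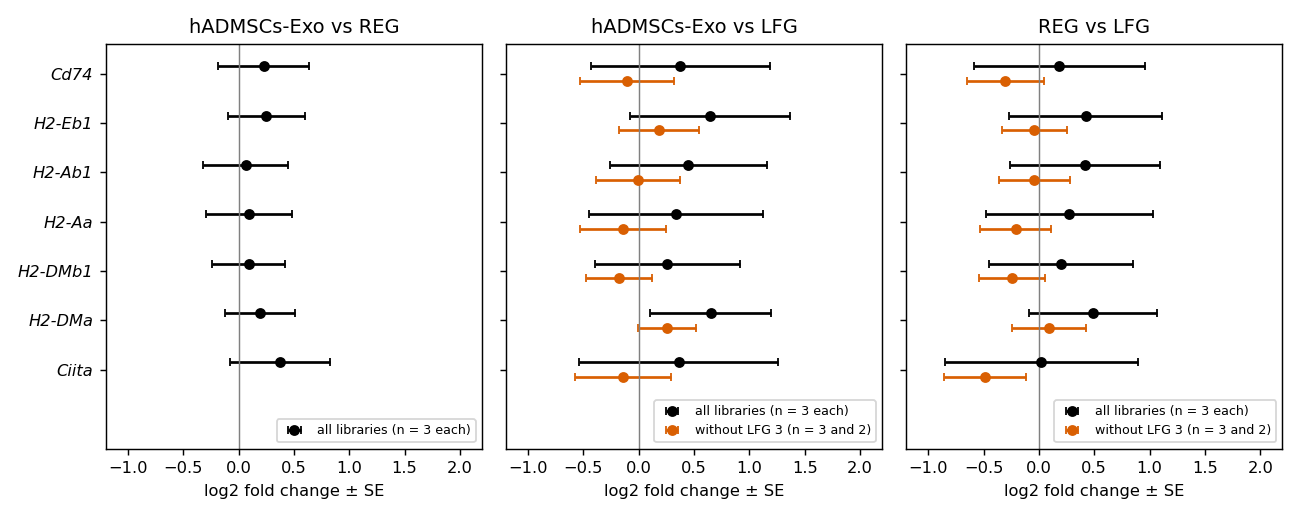
Log2 fold change of each gene with its SE for the 3 comparisons, black with all libraries and orange without LFG 3. All estimates lie between -0.49 and 0.65, and the orange points sit to the left of the black ones.

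The differences between libraries of a group were larger than those between groups. The mean of LFG 1 and LFG 2 was 4.44 times LFG 3 for H2-DMa, 6.64 times for H2-DMb1, 6.84 for H2-Ab1, 7.56 for H2-Eb1, 9.49 for H2-Aa, 9.91 for Cd74 and, on 4 reads, 19.1 for Ciita. The mean of hADMSCs-Exo 2 and 3 was 1.53 to 2.63 times hADMSCs-Exo 1, and that of REG 1 and 2 was 1.62 to 1.95 times REG 3. Of the variance of log2 CPM over the 9 libraries, 11.1% (H2-DMb1) to 25.9% (H2-DMa) lay between the group means, where the median gene had 25.1%. Without LFG 3 the members had 1.43% (H2-Ab1) to 18.1% (Ciita) between groups and the median gene 52.3%. The members therefore varied with the library more than with the group, and more so than a typical gene once LFG 3 was set aside.

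The 7 genes moved together across libraries. Pearson's r of log2 CPM over the 9 libraries ran from 0.950 (H2-DMa with H2-DMb1) to 0.998 (H2-Aa with Cd74) among the 21 pairs, and over the 8 libraries without LFG 3 from 0.745 to 0.992 for the same pairs. These values describe libraries that share depth and tissue makeup and carry no test. The ratio of Cd74 to H2-Aa in FPKM stayed between 3.25 and 3.80 in all 9 libraries, LFG 3 at 3.43 included, although H2-Aa varied 11.3-fold and Cd74 12.4-fold in CPM. Other ratios were looser. H2-DMa to H2-Ab1 was 0.120 in LFG 3 and 0.134 in hADMSCs-Exo 1, the libraries where H2-Ab1 was lowest, and 0.0771 to 0.0880 in the other 7. Ciita to H2-Ab1 was 0.00623 in LFG 3 and 0.0103 to 0.0188 elsewhere. The H2-DM genes thus spanned less than the chains they serve, 6.59-fold for H2-DMa and 7.53-fold for H2-DMb1 between the lowest and the highest library, and Ciita, on 4 reads in LFG 3, spanned more, 26.1-fold. Without LFG 3 the spans were 2.24-fold for H2-DMa, 2.04-fold for H2-DMb1, 2.63-fold for H2-Aa and 3.09-fold for Ciita. H2-Ab1 then spanned 2.605-fold and H2-Eb1 2.29-fold, which is close to H2-DMa.

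Of the members, 5 lie in 1 stretch of chromosome 17 (GRCm38, positions 34119541 to 34316674, 197 kb), all protein-coding: H2-DMa (ENSMUSG00000037649, 34119541-34139101, plus strand), H2-DMb1 (ENSMUSG00000079547, 34153072-34160230, plus), H2-Ab1 (ENSMUSG00000073421, 34257689-34269419, plus), H2-Aa (ENSMUSG00000036594, 34282744-34287823, minus) and H2-Eb1 (ENSMUSG00000060586, 34305867-34316674, plus). Cd74 (ENSMUSG00000024610) lies on chromosome 18 at 60803848-60812652 and Ciita (ENSMUSG00000022504) on chromosome 16 at 10480059-10528418, both on the plus strand. In the GENCODE vM21 annotation H2-DMa overlaps Brd2, H2-Eb1 overlaps the antisense Gm20513 and Ciita overlaps Dexi, each on the other strand. H2-DMa also overlaps CR974462.4 and Gm20493 on the other strand and CR974462.3 on its own. Cd74 overlaps the microRNA gene Mir5107 on its own strand. Whether counting used strand is not given in the sources used here, so reads of such pairs cannot be told apart where they overlap. H2-DMb1 and H2-DMb2 are close copies between which reads can be split.

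Between H2-DMb1 and H2-Ab1 stand genes of the other presentation route: Tap1 and Tap2, the transporter that feeds cytosolic peptide to class I molecules, and Psmb8 and Psmb9, subunits of the immunoproteasome. In LFG 3 the members of this stretch were lower than in the mean of LFG 1 and LFG 2 by 2.09 (H2-DMa) to 3.22 (H2-Aa) on the log2 scale. Tap1 was lower by 0.75, whereas Psmb9 was higher by 0.22, Tap2 by 0.70 and Psmb8 by 0.95. The all-gene median of this difference was -0.015. In hADMSCs-Exo 1, against the mean of the other 2 libraries of its group, H2-Aa stood at -1.30, H2-Ab1 at -1.26, H2-Eb1 at -1.17, H2-DMb1 at -0.84 and H2-DMa at -0.61, while Psmb9 stood close to H2-DMa at -0.56, Psmb8 at -0.20, Tap2 at 0.17 and Tap1 at 0.39. The scarce class II genes of this stretch outside the members stood at -1.84 (H2-DMb2) and -0.80 (H2-Ob) in LFG 3. In hADMSCs-Exo 1 they stood at -0.67 and 0.29, so that H2-Ob was above 0 there, as Tap1 and Tap2 were. Neighbors in 1 cluster thus differed in opposite directions in the same library, a contrast of single libraries with no replicate check.

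**Figure D4:**
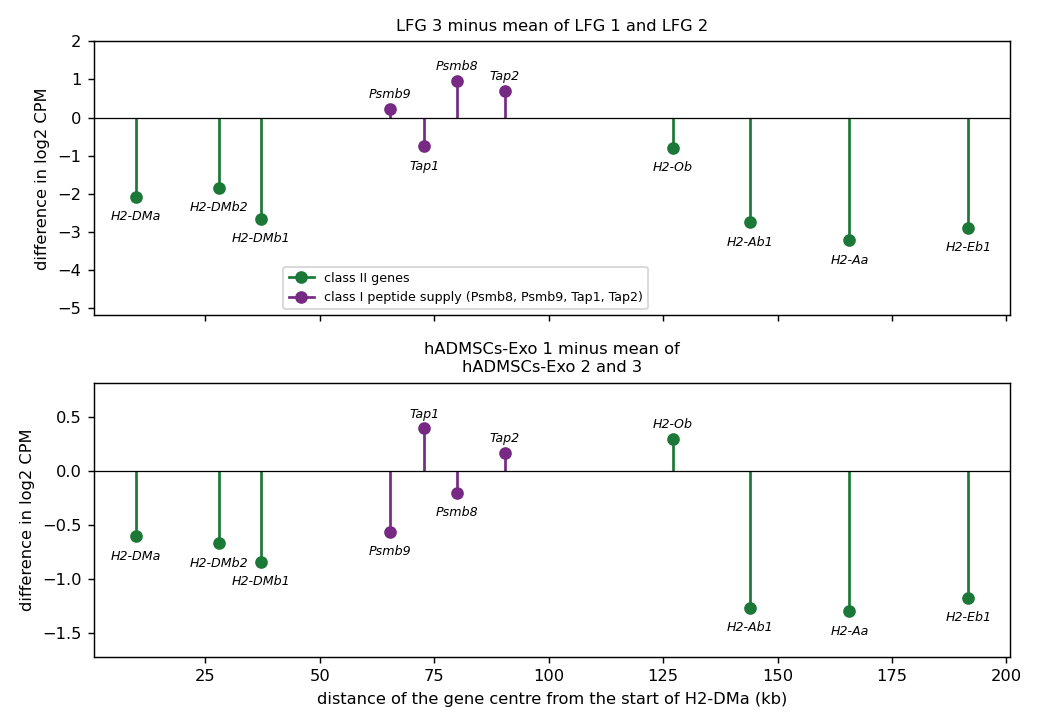
Difference in log2 CPM of LFG 3 (top) and of hADMSCs-Exo 1 (bottom) from the mean of the other 2 libraries of its group, for the 11 genes from H2-DMa to H2-Eb1 by distance in kb. Class II genes are green and class I supply genes purple. The members point down in both panels, and Tap2 points up in both.

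The remaining class II genes were scarce. H2-DMb2 ranged from 0.268 to 2.77 CPM, H2-Ob, which forms the H2-DM inhibitor H2-O, from 0.537 to 2.67, and H2-Oa and H2-Eb2 from 0 in LFG 3 to 1.11 and 0.652. Where they passed the low-count filter, 0 of 2 or 3 were called in any comparison. H2-Ob alone had an unadjusted p under 0.05 among them, higher in hADMSCs-Exo than in LFG by 1.34 ± 0.53 (unadjusted p = 0.0387, adjusted p = 0.805, edgeR), with its groups apart at 1.83 to 2.67 against 0.537 to 1.51 CPM. H2-DMb2, the other gene tested there, was also apart, at 1.42 to 2.77 against 0.268 to 1.35 CPM (1.08 ± 0.63), beside 12.3% of all genes. Without LFG 3 the difference of H2-Ob was 1.13 ± 0.49 (unadjusted p = 0.0519, adjusted p = 0.179), so that none had an unadjusted p under 0.05.

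Of the genes that process antigen or turn class II over, Ctss, Lgmn and Marchf1 were lowest in LFG 3, as the chains were, at 14.3, 34.5 and 1.25 CPM. The protease gene Ctsb was lowest there too, at 655.8 against 729.5 to 1416 CPM. The protease gene Ctsz and the ligase gene Marchf8 were instead highest there, at 399.7 and 94.6 CPM. The protease genes Ctsl, Ctsh and Ctsd, at 596, 288 and 166.7 CPM, lay within the range of the other libraries. With all libraries, 0 of 9 were called or had an unadjusted p under 0.05 in any comparison. All-gene shares at that unadjusted p were 10.0% in hADMSCs-Exo against REG, 5.98% in hADMSCs-Exo against LFG and 11.3% in REG against LFG. Without LFG 3, Ctss, the protease that trims Cd74, was lower in hADMSCs-Exo than in LFG by 1.41 ± 0.21 on the log2 scale (adjusted p = 0.0226). It measured 341 and 234 CPM in LFG 1 and 2 against 115, 103 and 105 in hADMSCs-Exo. Marchf1, the ubiquitin ligase that sends class II for degradation, was lower by 1.26 ± 0.22 (adjusted p = 0.0266) in that comparison and by 1.48 ± 0.33 (adjusted p = 0.0290) in REG against LFG. It measured 14.7 and 12.4 CPM in LFG 1 and 2, 3.57 to 7.02 in REG and 5.03 to 6.39 in hADMSCs-Exo. These were 2 of 9 and 1 of 9 genes called, beside 5.97% and 10.7% of all genes. With that library in the fit Ctss differed by -0.89 ± 0.90 and Marchf1 by -0.78 ± 0.75 in hADMSCs-Exo, with no call.

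The promoter factors gave no call, with or without LFG 3. Creb1 differed from LFG by -0.59 ± 0.23 in hADMSCs-Exo (edgeR, unadjusted p = 0.0360, adjusted p = 0.805) and by -0.53 ± 0.22 in REG (unadjusted p = 0.0485, adjusted p = 0.438). It was the single one of 7 factors with an unadjusted p under 0.05 in those comparisons, beside 5.98% and 11.3% of all genes. Without LFG 3 it differed by -0.66 ± 0.20 in hADMSCs-Exo (adjusted p = 0.0904) and -0.59 ± 0.20 in REG (adjusted p = 0.0764). Nfyc, an NF-Y subunit, went the other way in REG, at 0.61 ± 0.17 (unadjusted p = 0.00878, adjusted p = 0.0509), against 0.40 ± 0.21 with LFG 3. Rfx5, the DNA-binding RFX subunit that carries Ciita, ranged from 2.06 to 5.98 CPM. Its lowest library was LFG 3, where the chains were lowest. Its highest was hADMSCs-Exo 1, where the chains were also low.

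Of the genes that carry interferon gamma to Ciita, Irf1 was higher than in LFG in both recovered groups, by 0.89 ± 0.26 in REG (unadjusted p = 0.0115, adjusted p = 0.354) and by 0.73 ± 0.23 in hADMSCs-Exo (unadjusted p = 0.0149, adjusted p = 0.805), and neither difference passed. It measured 25.3, 19.5 and 25.04 CPM in LFG, 50.8, 48.4 and 29.2 in REG and 38.4, 47.3 and 30.5 in hADMSCs-Exo, so that LFG lay below both other groups and LFG 3 was not low. Without LFG 3 the differences were 0.98 ± 0.27 in REG (adjusted p = 0.0486, short of the fold threshold) and 0.80 ± 0.23 in hADMSCs-Exo (adjusted p = 0.0794). Ifngr1, a receptor chain, went the other way without LFG 3, at -0.88 ± 0.20 in REG (adjusted p = 0.0322) and -0.86 ± 0.15 in hADMSCs-Exo (adjusted p = 0.0281), both short of the fold threshold. In hADMSCs-Exo against REG, Ifngr2 differed by -0.43 ± 0.18 (unadjusted p = 0.0422, adjusted p = 0.488). The cytokine gene Ifng was at most 0.362 CPM in every library and did not pass the filter.

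Genes of class I presentation, the route for cytosolic peptides, went both ways in LFG 3. H2-K1, a class I heavy chain, measured 1172, 1862 and 2463 CPM in LFG, 2703, 2899 and 2267 in REG and 2544, 2337 and 2668 in hADMSCs-Exo. B2m, its light chain, was highest in LFG 3 at 3533 CPM, against 1628 and 2213 in LFG 1 and 2. Another heavy chain, H2-D1, was lowest in LFG 3, at 1069 CPM against 1081 to 1505 elsewhere, as were Tap1, at 29.8 against 43.8 to 107, and Erap1, the peptide-trimming enzyme, at 53.7 against 70.3 to 109. With all libraries 0 of 12 class I genes were called in any comparison, and the median over the list was 0.17 in REG against LFG, 0.35 in hADMSCs-Exo against LFG and 0.027 between hADMSCs-Exo and REG. Psmb9 had an unadjusted p under 0.05 in both comparisons with LFG (0.86 ± 0.24 in REG and 0.78 ± 0.22 in hADMSCs-Exo), Tap1 (0.96 ± 0.34) and Psmb10 (0.72 ± 0.30) in REG. These were 3 of 12 in REG and 1 of 12 in hADMSCs-Exo, beside 11.3% and 5.98% of all genes. Without LFG 3 all 12 were above 0 in REG against LFG, and 1 was called, the immunoproteasome subunit Psmb10 at 1.08 ± 0.20 (adjusted p = 0.0188), where 10.7% of all genes were called, so the count was no higher than over all genes. Psmb9 was then at 0.97 ± 0.24 in REG and 0.87 ± 0.24 in hADMSCs-Exo, and Tap1 at 0.77 ± 0.31 in REG. In the fit for REG 6 of the 7 class II members were below 0.

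Cell type markers were read in the same libraries, since class II is carried by few liver cells. Ptprc, the pan-leukocyte antigen CD45, measured 56.8, 58.8 and 6.62 CPM in LFG, 27.1, 15.8 and 16.8 in REG and 25.2, 39.2 and 24.1 in hADMSCs-Exo. The 11 recruited macrophage markers summed to 1169, 824 and 107 CPM in LFG, 320 to 614 in REG and 494 to 617 in hADMSCs-Exo. Both were thus low in LFG 3, as the class II genes were. The 8 Kupffer cell markers summed to 489 CPM in LFG 3, 383 of it from C6, and 882 to 1064 in LFG 1 and 2, the 10 dendritic cell markers to 9.39 against 29.9 to 37.2, the 8 T cell markers to 3.76 against 13.2 to 22.7, the 6 costimulation genes to 6.26 against 26.5 to 31.9 and the 8 B cell markers to 4.38 against 21.0 to 42.6. Outside the leukocytes, 8 sinusoidal endothelial markers summed to 87.9 CPM in LFG 3 and 177 to 213 in the others, 8 stellate cell markers to 67.6 against 805 to 1157 and 6 cholangiocyte markers to 50.1 against 149 to 195. Most of the last sum was Spp1 (41.1 against 172.9 and 124.5 CPM), which is also 1 of the recruited macrophage markers, and Sox9 of that list was at 6.35 against 6.36 and 6.82 CPM. Gpnmb, a marker of scar-associated macrophages, was at 0 in LFG 3, Trem2 and Cx3cr1 were at 0.0894 CPM there, and 7 hepatocyte markers summed to 157900 CPM against 80240 and 131900. The part of cell makeup in the low class II level of LFG 3 was not tested.

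In hADMSCs-Exo 1 the macrophage and T cell markers were less low than the class II genes. Its members summed to 300.4 CPM against 770.4 and 681.8 in hADMSCs-Exo 2 and 3, while its recruited macrophage markers summed to 499.7 against 493.8 and 617.4 (with Cd9 at 76.4 against 16.0 and 15.7), its Kupffer cell markers to 890.8 against 786.1 and 1012, and its T cell markers to 23.8 against 28.3 and 27.1. Its dendritic cell markers summed to 23.4 against 29.65 and 27.03 CPM, with Itgax at 3.61 against 6.69 and 6.55. Its B cell markers summed to 35.1 against 14.3 and 12.2 CPM, with Cr2 at 21.1 against 0.482 and 0.252. Sinusoidal endothelial markers were low in it, at 92.6 against 267.8 CPM in hADMSCs-Exo 2, but also in hADMSCs-Exo 3, at 99.3 CPM, where the members were high. Stellate cell markers summed to 81.7, 225 and 124 CPM in these 3 libraries. The part of these cells in the low level of hADMSCs-Exo 1 was not tested.

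With all libraries, no gene of these cell type lists was called in any comparison. Among the B cell markers, Cd79a, a chain of the B cell receptor complex, was higher than in LFG by 1.98 ± 0.49 in hADMSCs-Exo (unadjusted p = 0.00514, adjusted p = 0.805) and by 2.12 ± 0.62 in REG (unadjusted p = 0.0115, adjusted p = 0.354). It measured 0.447 to 0.843 CPM in LFG, 1.01 to 3.88 in REG and 1.66 to 3.19 in hADMSCs-Exo, so LFG lay below both, and without LFG 3 it differed by 1.84 ± 0.49 and 1.98 ± 0.65. Cr2, a complement receptor of B cells, went the other way in REG against LFG, at -3.33 ± 1.25 (unadjusted p = 0.0324, adjusted p = 0.409), and was called lower without LFG 3, at -3.89 ± 0.57 (adjusted p = 0.0151). Among the dendritic cell markers the transcription factor gene Batf3 differed in hADMSCs-Exo from LFG by 1.11 ± 0.44 (unadjusted p = 0.0415, adjusted p = 0.805), and without LFG 3 by 1.01 ± 0.45 (unadjusted p = 0.0568). The median of that list was 0.22 over the 8 markers tested with all libraries and -0.12 over 10 without LFG 3, where 6 were below 0. In hADMSCs-Exo against REG, the T cell gene Cd8a differed by 0.71 ± 0.24 (unadjusted p = 0.0188, adjusted p = 0.430) and Cd40, a costimulatory receptor of antigen-presenting cells, by 1.06 ± 0.44 (unadjusted p = 0.0423, adjusted p = 0.488). In that comparison 5 of 8 stellate cell markers were lower with an unadjusted p under 0.05 (edgeR) and 5 had groups apart. Of that list 0 were higher and the median was -1.01, beside all-gene shares of 10.0% and 15.5%. In hADMSCs-Exo against LFG, 4 of 8 stellate cell markers were lower at that unadjusted p, beside 5.98% of genes. There 3 of 7 B cell markers tested, Cd79a among them, were higher by the same rule and 0 lower. With all libraries none of these passed the adjusted threshold.

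Without LFG 3, recruited macrophage markers were called lower in the comparisons with LFG, where no class II member was called. The difference between the lists was not tested. Markers outside the leukocytes were called lower in the same fits, 2 of 8 stellate cell markers in REG and 5 of 8 in hADMSCs-Exo (list medians -0.92 and -1.88) and 3 of 6 and 2 of 6 cholangiocyte markers (-1.28 and -1.38), beside 6.94% and 4.50% of all genes. In REG against LFG, 6 of 11 recruited macrophage markers were called lower, beside 6.94% of all genes, with Gpnmb at -2.80 ± 0.44 (adjusted p = 0.0154), Trem2 at -2.47 ± 0.40 (adjusted p = 0.0156), Ccr2 at -1.94 ± 0.46 (adjusted p = 0.0337) and a list median of -1.39. In hADMSCs-Exo against LFG, 3 of 11 were called lower, beside 4.50% of all genes, namely Trem2 at -2.86 ± 0.51, Gpnmb at -2.81 ± 0.51 and Cx3cr1 at -2.12 ± 0.27, and the list median was -1.08. Ptprc was called lower in REG, at -1.50 ± 0.24 (adjusted p = 0.0157), and stood at -0.96 ± 0.23 in hADMSCs-Exo (adjusted p = 0.0523). Itgax, the dendritic cell integrin CD11c, fell in REG by 1.72 ± 0.45 (adjusted p = 0.0418), the 1 called of 10 dendritic cell markers, which is close to the 10.7% called over all genes. Icosl, a ligand for T cells, fell in REG by 1.07 ± 0.27 (adjusted p = 0.0381), and none of the other 5 costimulation genes was called, beside 6.94% of all genes called lower. The other leukocyte lists had medians, in REG and in hADMSCs-Exo, of 0.0062 and 0.61 (T cell), 0.63 and 1.29 (B cell) and -0.081 and -0.28 (Kupffer cell). Of the 8 Kupffer cell markers, 2 were called in hADMSCs-Exo, beside 5.97% of all genes, with the macrophage receptor gene Adgre1 lower at -1.04 ± 0.21 (adjusted p = 0.0346) and the complement gene C6 higher at 1.35 ± 0.29 (adjusted p = 0.0392). Those of the class II members in these fits were -0.21 and -0.11. With LFG 3 kept, none of these genes was called in either comparison.

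Set against Ptprc, class II expression ordered the groups differently. The ratio of H2-Aa to Ptprc in CPM was 2.09, 2.69 and 2.203 in LFG, 5.95, 7.20 and 4.35 in REG and 2.49, 4.21 and 6.01 in hADMSCs-Exo. For H2-Aa, LFG 3 lay between the other LFG libraries on this scale. For Ciita it was still below them (0.0541 against 0.111 and 0.126) and for H2-DMa above them (0.378 against 0.169 and 0.215). All REG libraries were above all LFG libraries for each of the 7 members, where 3.33% of 12759 genes had a ratio to Ptprc that was higher with no overlap, and the median log2 difference of the ratio was 1.24 over the members and 0.53 over all genes. In hADMSCs-Exo against LFG the ratio was apart for 1 of 7 members, H2-Eb1 (2.66 to 6.20 against 1.66 to 2.203), beside 1.02% of genes (H2-DMa, at 0.385 to 0.586 against 0.169 to 0.378, was apart only before the prior count was added), and in hADMSCs-Exo against REG for 0 of 7, beside 0.196% of genes higher and 15.8% lower with no overlap, with a median log2 difference of -0.40 over the members and -0.57 over all genes. The ratio was formed after the values were seen and depended on the gene below the line. Over Csf1r, the macrophage growth factor receptor, 1 of 7 members (H2-Aa) was apart between REG and LFG, beside 0.533% of genes, and over Lyz2, the myeloid lysozyme, 0 of 7, beside 0.172%. Over the macrophage gene Adgre1 it was 0 of 7, beside 0.0470%, and over Itgax 1 of 7 (Ciita), beside 0.392%. In hADMSCs-Exo against REG, 3 of 7 (H2-Aa, H2-Ab1 and H2-DMb1) were lower over Itgax with no overlap, beside 6.84% of genes, and 0 of 7 were lower over Csf1r, Lyz2 or Adgre1, beside 1.80%, 13.2% and 4.66%.

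**Figure D5:**
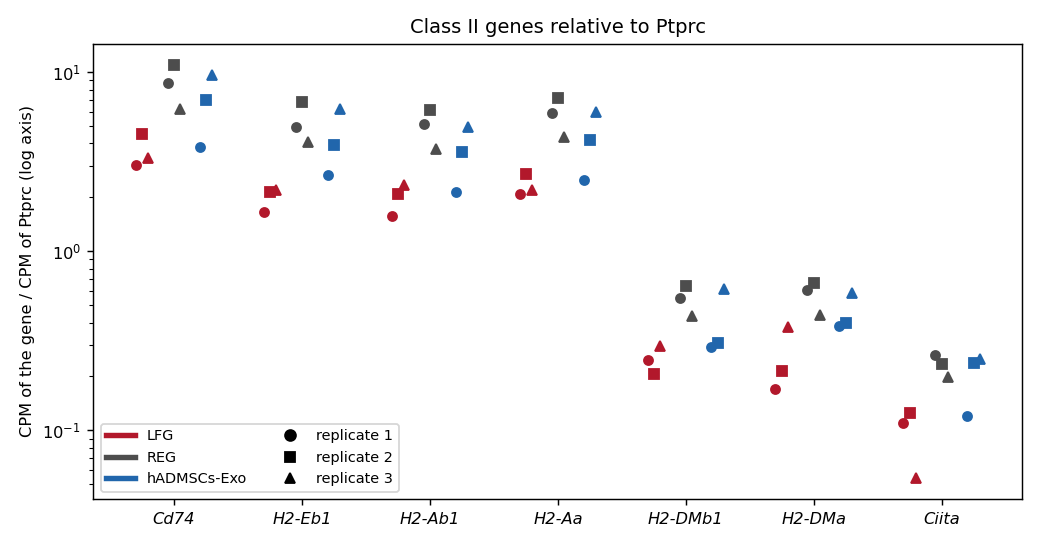
Ratio of each gene's CPM to that of Ptprc on a log axis, in each library. For every gene the 3 REG points lie above the 3 LFG points, LFG 3 included, while the hADMSCs-Exo points fall between and across both ranges.

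Genes most like the members were sought over all other genes that passed the filter, by Pearson's r of log2 CPM with the mean deviation of the 6 members other than Ciita, over 9 libraries that share depth and tissue makeup. Ciita itself had r = 0.982. The 10 highest were Cdkn2a (0.988), Cxcr6 (0.971), Clec4n (0.963), Procr (0.960), Hcst (0.960), Ptbp3, Ly75, Cnn2, Tlr2 and Naip1 (0.951). Of 12753 genes, 117, or 0.917%, reached r = 0.9, and the median was -0.024. Without LFG 3 the highest were Klrb1c (0.954), Cdkn2a (0.954), Zfp949 (0.920), Nrp2, Idua, Srgap1, Itgb7, Mkrn3, Lpar6 and Cited2 (0.879), and 6 genes reached r = 0.9, or 0.0470%. Cdkn2a was the one gene in both sets, at a level of 0 in LFG 3 and 0.237 to 0.801 CPM elsewhere, which is a small number of reads. It encodes the cell cycle inhibitor p16 and an alternative-frame protein.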

How the data were processed

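Liver RNA was sequenced on an Illumina instrument. Per the submitters' processing notes, the tools were cutadapt 1.15, HISAT2 2.0.5, HTSeq 0.9.1 and DESeq 1.30.0, on GRCm38. The authors deposited raw read counts per gene and FPKM, which divides counts by gene length and library total, for 9 libraries. The FPKM were used for levels between genes and the counts for everything else. Genes with low counts were removed with filterByExpr, libraries were scaled by TMM, and each pair of groups was fitted alone by edgeR's quasi-likelihood test (edgeR 4.0.16, R 4.3.3). A gene was called at a Benjamini-Hochberg adjusted p under 0.05, over all genes tested, with a log2 fold change of 1 or more in size. CPM are TMM-scaled. Log2 CPM for correlations used a prior count of 2. The SD over 3 libraries limits the precision. The fits were also run on simulated counts with known changes, which held no library set apart as LFG 3 was. No result of that run is used here. Members and gene lists were chosen with earlier results of these data known. Text names all 7 members, genes of the fixed lists and the 10 genes nearest to the members in pattern, with all libraries and again without LFG 3.

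Alternatives were RLE size factors, DESeq2 1.42.0, no filter on low counts, all libraries in one fit, a replicate block and leaving out each library. Deviations from the group mean were correlated across genes between libraries with the same number. For LFG and hADMSCs-Exo r was 0.101, 0.308 and 0.18, and for hADMSCs-Exo and REG 0.159, 0.00938 and 0.0336. For REG and LFG it was 0.415, -0.202 and 0.305. The labels give no pairing, and these values cannot show that equal numbers are paired samples. The main fits are unpaired.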

Additional observations from a re-analysis of the deposited data

How the results depend on the processing

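In each comparison the count of members called and the count with an unadjusted p under 0.05 stayed at 0 under all alternatives run: RLE size factors, DESeq2, no filter on low counts, all libraries in one fit, the replicate block, each library left out and, for hADMSCs-Exo against LFG and chosen after seeing the data, LFG 3 and hADMSCs-Exo 1 both left out. The smallest unadjusted p of a member over these 238 values was 0.0687 and the smallest adjusted p 0.222. With the replicate block the median log2 fold change of the members was 0.20 in hADMSCs-Exo against REG, 0.71 in hADMSCs-Exo against LFG and 0.68 in REG against LFG, and the block changed no call. Leaving out 1 library moved those medians between -0.061 and 0.50, between -0.11 and 0.97 and between -0.21 and 0.83.

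The sign of single members turned in 29 of the 238 values, none of them called. Apart from Ciita in REG against LFG with all libraries in one fit (-0.0056), every turn came from leaving out 1 library. In hADMSCs-Exo against REG the log2 fold changes then ranged from -0.16 to 0.43 for H2-Aa, -0.21 to 0.41 for H2-Ab1, -0.050 to 0.56 for H2-DMa, -0.14 to 0.41 for H2-DMb1, -0.061 to 0.56 for Cd74 and -0.062 to 0.82 for Ciita. In hADMSCs-Exo against LFG they ranged from -0.14 to 0.87 for H2-Aa, -0.0042 to 0.97 for H2-Ab1, -0.18 to 0.68 for H2-DMb1, -0.11 to 1.03 for Cd74 and -0.14 to 0.83 for Ciita. In REG against LFG they ranged from -0.21 to 0.81 for H2-Aa, -0.041 to 0.93 for H2-Ab1, -0.043 to 0.94 for H2-Eb1, -0.25 to 0.61 for H2-DMb1, -0.30 to 0.83 for Cd74 and -0.49 to 0.50 for Ciita. The lowest counts behind a member were those of Ciita, 4 reads, and H2-DMb1, 22 reads, both in LFG 3, and counting error is largest there.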

Other observations

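Cr2, a complement receptor of B cells and follicular dendritic cells, was singled out after its values were seen. It measured 32.6, 12.6 and 0.447 CPM in LFG 1 to 3, 2.65, 1.154 and 0.690 in REG and 21.1, 0.482 and 0.252 in hADMSCs-Exo, so that 1 treated library lay between LFG 1 and LFG 2 and the other 2 lay below every REG library. Ms4a1, another B cell gene, did not repeat this, with 1.36 CPM in hADMSCs-Exo 1 against 0.506 in LFG 1. Cd9 was highest in the same treated library, at 76.4 CPM against 16.0 and 15.7 in the others of its group.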
